A study of Mus musculus with 6 samples.

Results

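The genes described here encode the machinery that degrades RNA in mouse cells: the RNA exosome with its nuclear cofactors, the factors of nonsense-mediated decay (NMD), the deadenylases and the decapping and 5′-end decay enzymes. They were chosen by symbol from a list of 49 genes, and all 49 were found among the 55401 gene rows of the count table. All 49 also passed the filter on low counts, which kept 17573 genes for testing. The cells were mouse embryonic stem cells (129/Ola), and RNA made in the presence of 4-thiouridine (4sU), a uridine analogue, was captured from them. ZFP207, a zinc finger protein, is fused in these cells to an auxin-inducible degron (AID), a tag through which the auxin IAA (indole-3-acetic acid) sends the protein to the proteasome. The 3 control libraries are titled as degron cells at 0 h of IAA and their genotype label reads WT, and the 3 depleted libraries had 5 h of IAA and a label that names ZFP207 degradation. Both groups were grown in serum with leukaemia inhibitory factor, and no library of cells without the degron and with IAA was analysed here, so the hormone and the loss of ZFP207 cannot be told apart. If the label WT means cells without the tag, the comparison is also one between lines. Nothing in the labels states how many clones were used. In bulk libraries, fewer cells of a type and less RNA per cell cannot be told apart.

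Most RNA decay starts or ends at these complexes. In the cytoplasm, an mRNA usually loses its poly(A) tail to the PAN2-PAN3 and CCR4-NOT deadenylases, then its cap to DCP2 and its activators, and the body is digested from the 5′ end by XRN1 or from the 3′ end by the exosome. In the nucleus, the exosome removes unstable transcripts that adaptors such as the NEXT complex (ZCCHC8 and RBM7) and ZFC3H1 bring to it. NMD recognises translating mRNAs with premature stop codons through UPF1, UPF2, UPF3 and the SMG proteins, helped by the exon junction complex that splicing leaves on the RNA. The series asks about ZFP207 and the U1 snRNP, which recognises 5′ splice sites. The decay genes are described here only by the labelled RNA made from them.

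Total counts ran from 14336811 to 25916628 per library. On the first principal component of log2 CPM (32.4% of the variance), replicate 2 scored 83.5 in the control and 31.9 in the depleted group. The other 4 libraries scored from -65.7 to -3.58. On the second component (25.8%), controls scored from 12.4 to 54.3 and depleted libraries from -71.3 to -19.2. Levels are given as CPM, library-scaled counts after TMM normalization, always for replicates 1, 2 and 3 in that order. Zfp207 RNA was 545, 1116 and 548 CPM in controls and 695, 1467 and 596 CPM after IAA (paired log2 fold change 0.29, edgeR adjusted p = 0.0196), which does not check a degron that acts on the protein. The summed level of 7 embryonic stem cell markers was 3428 to 3828 CPM in controls and 3647 to 4169 CPM in depleted libraries. Of these 7, 1 was called in the paired edgeR fit (adjusted p under 0.05), against 12.9% of all genes. The summed level of 5 fibroblast markers was 2.49 to 8.92 and 2.87 to 4.46 CPM, with Col3a1 and Postn at 0 in all 6 libraries. Summed trophoblast markers stood at 90.2 to 123 and 106 to 145 CPM, nearly all of it Tfap2c, with Cdx2 and Elf5 at 0. Summed 2-cell-like markers varied between libraries, from 0.114 to 16.4 CPM in controls and from 0.365 to 17.4 CPM in depleted libraries. Primitive endoderm markers summed to 4.04 to 7.41 and 7.37 to 7.48 CPM, and neural and mesoderm markers to 18.8 to 28.8 and 14.3 to 28.0 CPM.

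After 5 h of IAA, newly made RNA of most decay genes stayed close to its control level, and a few genes moved, in both directions. Xrn1, Cnot9 and Dcp1b fell, and Zfc3h1 and Edc4 rose, when each depleted library was compared with the control library of the same replicate number. This paired fit called 4 of the 49 genes lower and 10 higher at an edgeR adjusted p under 0.05, where 7.9% and 4.96% of all 17573 genes were called. Both directions together made 28.6% of the decay genes against 12.9% of all genes. The unpaired edgeR fit, planned as the main test, ignores the replicate numbers. It called 0 of the 49, against 0.78% of all genes lower, 0.0114% higher and 0.791% together. In it, 7 of the 49 had an unadjusted p under 0.05, against 10.9% of all genes. DESeq2 without pairing called Cnot9 lower and Zfc3h1 higher, 2 of 49 against 3.29% of all genes lower, 0.353% higher and 3.65% together. Leaving out pair 1, 2 or 3 left 9, 9 and 5 of the 14 paired calls. The 5 genes named above were the ones called in all of these paired fits. The share of all genes called without a pair was not computed, so these counts are not a result about the decay genes.

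**Figure D1:**
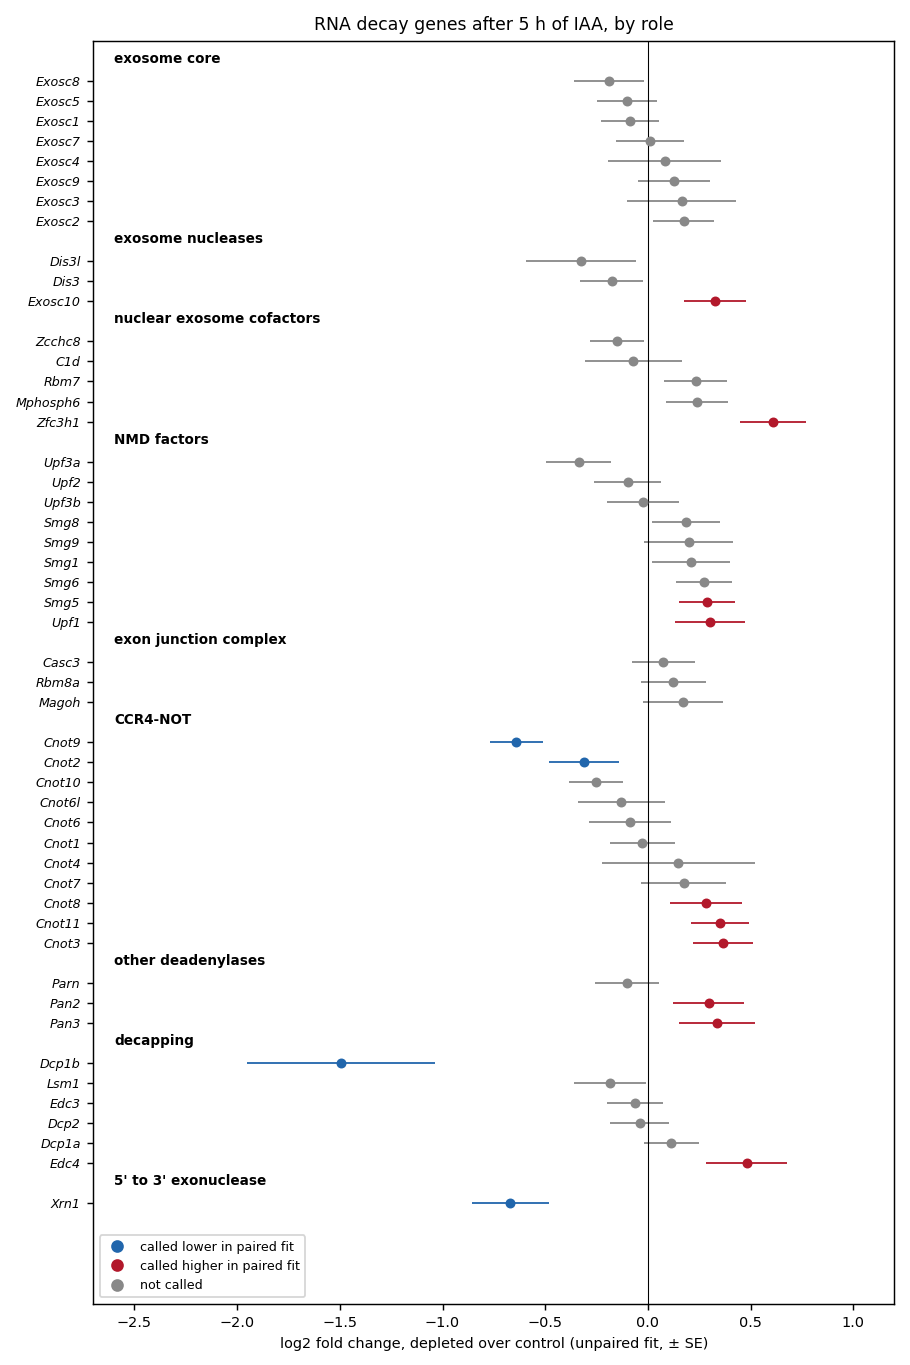
Log2 fold change of each of the 49 decay genes (x axis, depleted over control, unpaired edgeR fit, bars ± SE) in blocks by role, with the genes called in the paired fit in colour. The 14 coloured genes lie on both sides of 0, Dcp1b is at -1.50, and the other genes lie between -0.67 and 0.61.

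In the unpaired fit, the 49 genes had a median log2 fold change of 0.08, beside 0.02 over all genes tested. Their middle range was narrower than that of all genes, with quartiles of -0.10 and 0.23 against -0.32 and 0.24. Dcp1b alone was beyond 2-fold, against 9.83% of all genes, and 44 of the 49 (89.8%) lay within 1.3-fold of the control level, against 62.7% of all genes. In the 3 pairs, 13 decay genes were lower and 19 higher in every pair (26.5% and 38.8%), and over all genes these shares were 24.1% and 24.2%. The depleted libraries lay entirely below the controls for 6 of the 49 (12.2%, against 11.8% of all genes) and entirely above for 7 (14.3%, against 6.94%). These counts describe a small number of members and were not tested as a list. Apart from Dcp1b, no member had under 207 counts in any library. The set of all genes was not matched to the members in counts, here or for the calls above. Whether that accounts for the differences in spread and in shares was not tested.

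**Figure D2:**
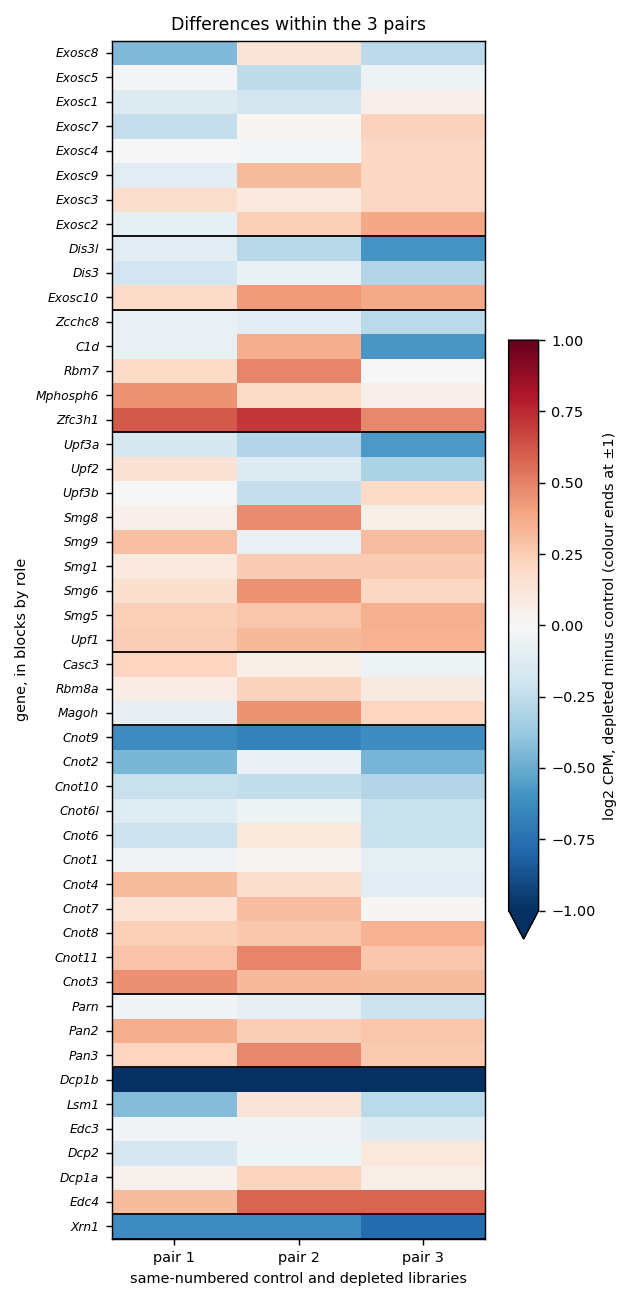
Log2 CPM of the depleted minus the control library of the same replicate number, for each decay gene (rows, in blocks by role) in pairs 1 to 3 (columns), with blue for lower and red for higher. Cnot9, Dcp1b and Xrn1 are blue in all 3 pairs and Zfc3h1 and Edc4 are red in all 3, the colour of Dcp1b is cut off at -1, and most core exosome genes change sign between pairs.

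Since the RNA measured was newly made, the DNA just upstream of the 5 genes called in every paired fit is shown, with the letters searched for in capitals. Each line holds the 90 bases before the RefSeq interval of the gene on the plus strand of the GRCm38.p6 assembly, which corresponds to mm10, written 5′ to 3′.
Xrn1, chr9:95954660-95954749: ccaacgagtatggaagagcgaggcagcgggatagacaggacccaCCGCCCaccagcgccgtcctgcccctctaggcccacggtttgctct
Cnot9, chr1:74505946-74506035: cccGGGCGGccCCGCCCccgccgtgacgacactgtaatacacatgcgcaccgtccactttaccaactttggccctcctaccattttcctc
Dcp1b, chr6:119175163-119175252: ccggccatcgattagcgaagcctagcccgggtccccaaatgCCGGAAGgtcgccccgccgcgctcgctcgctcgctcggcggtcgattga
Zfc3h1, chr10:115384709-115384798: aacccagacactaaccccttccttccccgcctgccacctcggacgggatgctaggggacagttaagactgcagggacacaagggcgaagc
Edc4, chr8:105880783-105880872: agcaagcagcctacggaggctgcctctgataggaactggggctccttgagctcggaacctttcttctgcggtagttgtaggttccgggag
The capitals mark the GC box (GGGCGG, or CCGCCC on the other strand) in Xrn1 and Cnot9 and an ETS core (CCGGAAG, or CTTCCGG) in Dcp1b. The CCAAT box (CCAAT or ATTGG) and the TATA box (TATAAA or TTTATA) were not found in these 5 windows, and none of the 4 motifs was found in those of Zfc3h1 and Edc4. In the 90 bases before the annotated starts of all 32851 RefSeq promoters, the GC box was present in 23.4%, the ETS core in 4.27%, the CCAAT box in 17.4% and the TATA box in 5.12%. The windows shown are anchored at the start of the whole RefSeq interval instead, which can differ from the annotated start of a transcript. The window of Cnot9 lies within the interval of Usp37, that of Dcp1b within Cacna1c and that of Xrn1 within Gm16794. For promoters of genes tested here, the shares were 42.2%, 8.2%, 21.1% and 2.31%. Of the 49 promoter entries that RefSeq holds for 41 of the decay genes, 19 had the GC box, 6 the ETS core, 7 the CCAAT box and 0 the TATA box. GC content of the windows shown ran from 57.8% for Edc4 to 70.0% for Dcp1b.

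No gene of the exosome core was called. This barrel of structural subunits holds the RNA, and 8 of its genes were described (Exosc1, Exosc2, Exosc3, Exosc4, Exosc5, Exosc7, Exosc8 and Exosc9). Their unpaired log2 fold changes ran from -0.19 for Exosc8 to 0.17 for Exosc2, and the smallest paired adjusted p in edgeR was 0.325. Exosc8 was 74.0, 60.2 and 60.8 CPM in controls and 54.5, 65.7 and 50.7 CPM in depleted libraries, and Exosc2 was 73.1, 64.8 and 60.1 against 68.2, 76.4 and 78.8 CPM. The groups overlapped for all 8 genes, and for 6 of the 8 the pairs did not share a direction.

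Of the 3 nucleases that give the exosome its activity, Exosc10 was called and Dis3 and Dis3l were not. Exosc10, a nuclear 3′ exonuclease (chromosome 4, 148558419 to 148582401), stood at 119, 92.9 and 114 CPM in controls and at 136, 125 and 148 CPM after IAA. All 3 depleted values were above all controls, and Exosc10 rose in the paired fit (edgeR adjusted p = 0.0232 for a log2 fold change of 0.33 ± 0.09 SE). The call was lost without pair 2 (adjusted p = 0.0867) or pair 3 (0.125), and the unpaired adjusted p was 0.492. Dis3, the processive catalytic subunit, was 209, 215 and 186 CPM in controls and 182, 205 and 152 CPM after IAA. Its cytoplasmic relative Dis3l was 28.4, 19.0 and 31.3 against 26.4, 15.6 and 20.6 CPM. Both were lower in all 3 pairs with overlapping groups, and neither was called (paired adjusted p = 0.143 and 0.201).

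Among the nuclear cofactors, Zfc3h1 had the largest rise of all 49 genes. ZFC3H1 is the zinc finger scaffold of the PAXT connection, which links polyadenylated nuclear RNA to the exosome. Zfc3h1 (chromosome 10, 115384799 to 115432772) was 144, 164 and 140 CPM in controls and 220, 268 and 195 CPM after IAA, with every depleted library above every control. Without pairing the log2 fold change was 0.61 ± 0.16 (SE), with an edgeR adjusted p of 0.1505. With pairing it was 0.60 ± 0.08 (SE), with an edgeR adjusted p of 0.00043. DESeq2 called it too (adjusted p = 0.0215), and the paired adjusted p stayed between 0.000903 and 0.00445 when any pair was left out. No other RefSeq gene overlaps its interval.

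The other 4 cofactor genes were not called in any of the 3 fits. Rbm7 and Zcchc8 encode the NEXT complex. Rbm7 was 86.0, 72.5 and 81.0 CPM in controls against 98.4, 102 and 81.2 CPM, higher in all 3 pairs. Zcchc8 was 134, 133 and 132 against 127, 123 and 109 CPM, lower in all 3 pairs with no overlap of the groups (edgeR adjusted p = 0.255 for a paired log2 fold change of -0.15 ± 0.08 SE). The values for the partners thus lay on opposite sides of 0. Mphosph6, which helps bind the helicase MTREX to the exosome, was 83.3, 85.0 and 84.1 CPM in controls and 114, 96.9 and 86.9 CPM after IAA, and C1d, a partner of EXOSC10, was between 14.01 and 23.0 CPM in all libraries.

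In NMD, Upf1 and Smg5 rose in the paired fit and the other 7 genes were not called. UPF1 is the helicase at the centre of the pathway, and SMG5 binds phosphorylated UPF1 and recruits decay enzymes. Upf1 (chromosome 8, 70331493 to 70353423) was 253, 187 and 242 CPM in controls and 300.0, 234 and 307 CPM in depleted libraries. The groups overlapped, since depleted replicate 2 lay below control replicates 1 and 3, and each pair rose (edgeR adjusted p = 0.0148 for a paired log2 fold change of 0.30 ± 0.07 SE). Smg5 (chromosome 3, 88336259 to 88362338) was 354, 305 and 342 CPM in controls and 417, 368 and 437 CPM after IAA, with no overlap (edgeR adjusted p = 0.0164 for a paired log2 fold change of 0.29 ± 0.07 SE). Both calls were lost without pair 3, at adjusted p = 0.101 for Upf1 and 0.124 for Smg5, and the unpaired adjusted p was 0.585 and 0.495. Cers1 and Gdf1 overlap one end of Upf1, at no more than 4.14 CPM.

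The remaining NMD genes gave smaller differences. Smg6, the NMD endonuclease, was 140.5, 127 and 127 CPM in controls and 157, 174 and 146 CPM after IAA, above all controls but not called (paired edgeR adjusted p = 0.0546). Smg1, the kinase of UPF1, was 359, 489 and 382 against 385, 582 and 455 CPM (paired edgeR adjusted p = 0.0798). Its regulators Smg8 and Smg9 had log2 fold changes of 0.18 and 0.20 in the unpaired fit, with neither called. All 5 Smg genes thus had values above 0, of which Smg5 passed the test. Upf3a, a UPF2-binding protein linking NMD to the exon junction complex, was 51.2, 54.6 and 55.8 CPM in controls and 45.9, 44.5 and 37.6 CPM in depleted libraries, below all controls (paired edgeR adjusted p = 0.0806). Upf3b, its X-linked paralogue, was 51.0, 66.6 and 48.0 against 51.1, 56.9 and 55.0 CPM, and Upf2 had a log2 fold change of -0.10. The exon junction complex genes Casc3, Magoh and Rbm8a were not called, with log2 fold changes of 0.08, 0.17 and 0.12 and overlapping groups.

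CCR4-NOT, the main deadenylase complex, held calls in both directions: 2 of its 11 genes were lower and 3 higher in the paired fit. CNOT9 is a subunit that binds adaptor proteins such as those of the microRNA machinery. Cnot9 (chromosome 1, 74506036 to 74530842) was 169, 183 and 166 CPM in controls and 109, 115 and 108 CPM after IAA. The 3 depleted values lay close together and far below every control. Its log2 fold change was -0.64 in both fits, with an SE of 0.13 in the unpaired fit (edgeR adjusted p = 0.0696) and 0.08 in the paired fit (edgeR adjusted p = 0.000244). DESeq2 gave an adjusted p of 0.000569, and the paired value was between 0.000551 and 0.00543 with any pair left out. Cnot9 lies wholly within the RefSeq interval of Usp37, and the strand of the reads is not stated. Usp37 itself was 231, 316 and 268 CPM in controls and 237, 368 and 241 CPM after IAA (unpaired log2 fold change 0.05).

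The other CCR4-NOT calls were smaller. Cnot2 (chromosome 10, 116485160 to 116581900), a scaffold partner of CNOT3, was 133, 135 and 122 CPM in controls and 96.8, 129 and 88.6 CPM in depleted libraries. Depleted replicate 2 lay inside the control range, and Cnot2 fell in the paired fit (edgeR adjusted p = 0.0414 for a log2 fold change of -0.33 ± 0.10 SE), a call lost without pair 1 (0.206) or pair 3 (0.176). CNOT3 forms a heterodimer with CNOT2 in the complex. Cnot3 (chromosome 7, 3645247 to 3661109) was 165, 151 and 184 CPM in controls and 226, 189 and 229.6 CPM after IAA, with no overlap. It rose in the paired fit (edgeR adjusted p = 0.00767 for a log2 fold change of 0.37 ± 0.08 SE) and lost the call without pair 1 (0.0605) or pair 3 (0.0522). In the paired fit the genes of these partners thus moved in opposite directions. Leng1 and Gm15927 overlap the ends of Cnot3 at no more than 15.8 CPM.

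Cnot11 and Cnot8 rose in the paired fit. CNOT11 docks with CNOT10 on the scaffold. Cnot11 (chromosome 1, 39535701 to 39546881) was 63.7, 61.2 and 62.1 CPM in controls and 77.9, 85.9 and 74.7 CPM after IAA, above all controls (edgeR adjusted p = 0.0314 for a log2 fold change of 0.35 ± 0.10 SE). Cnot8, one of the interchangeable CAF1 deadenylases (chromosome 11, 58092794 to 58118597), was 122, 88.7 and 102 CPM in controls and 144, 107 and 130 CPM in depleted libraries, which overlap. Each pair rose (edgeR adjusted p = 0.0386 for a log2 fold change of 0.29 ± 0.08 SE). Both calls were lost when any pair was left out, at adjusted p of 0.0760, 0.149 and 0.0953 without pairs 1, 2 and 3 for Cnot11 and 0.111, 0.0737 and 0.196 for Cnot8.

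The scaffold gene Cnot1 had the most counts of the 49 and hardly differed, at 1064, 1281 and 1049 CPM in controls and 1041, 1308 and 982 CPM after IAA (paired log2 fold change -0.03, SE 0.06). Its level is not corrected for length and does not rank it above shorter genes. Cnot10 was 128, 142 and 132 against 109.9, 119 and 108 CPM, below all controls but not called (paired edgeR adjusted p = 0.0563). Cnot4, the complex's ubiquitin ligase, was 236 and 267 CPM in the control and depleted libraries of replicate 2 and 110 to 140.5 CPM in the other 4, so its spread followed the replicate number. Cnot6, Cnot6l and Cnot7 encode catalytic subunits, and none was called. Cnot6 was 304, 357 and 280.2 CPM in controls and 261, 385 and 239.5 CPM after IAA (unpaired log2 fold change -0.09 ± 0.20 SE, paired edgeR adjusted p = 0.422). Cnot6l was 49.1, 71.3 and 66.5 against 45.2, 68.7 and 56.9 CPM (-0.13 ± 0.21 SE, paired edgeR adjusted p = 0.443). Cnot7 was 122, 163 and 126 against 135, 202 and 127 CPM (0.17 ± 0.21 SE, paired edgeR adjusted p = 0.258). The groups overlapped for all 3 genes.

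Both genes of the PAN2-PAN3 deadenylase, which trims long tails first, rose in the paired fit. The nuclease gene Pan2 (chromosome 10, 128303333 to 128321358) was 85.5, 75.4 and 99.98 CPM in controls and 109.9, 89.3 and 121 CPM after IAA (edgeR adjusted p = 0.0406 for a log2 fold change of 0.29 ± 0.09 SE). Pan3, which recruits PAN2 to mRNA (chromosome 5, 147426208 to 147548501), was 128, 163 and 147 against 149, 227 and 176 CPM (edgeR adjusted p = 0.0229 for a log2 fold change of 0.32 ± 0.08 SE). The groups overlapped for both genes, and the rise appeared within each of the 3 pairs. Pan2 lost its call without any one pair (adjusted p = 0.203, 0.0613 and 0.162 without pairs 1, 2 and 3), and Pan3 without pair 2 (0.116) or pair 3 (0.0742). Parn, a separate poly(A)-specific ribonuclease gene, was 63.5, 58.3 and 57.9 against 62.4, 55.2 and 49.8 CPM and was not called.

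In decapping, Dcp1b fell further than any other of the 49 genes and Edc4 rose. DCP1B is one of a pair of activators of the decapping enzyme DCP2. Dcp1b (chromosome 6, 119175253 to 119221614) was 9.59, 13.5 and 5.96 CPM in controls and 2.54, 5.52 and 2.17 CPM after IAA. All 3 depleted values lay below all controls, with depleted replicate 2 just under control replicate 3. It was also the gene with the fewest counts of the 49, at 252, 237 and 110 in controls and 57, 121 and 32 in depleted libraries. Without pairing the log2 fold change was -1.50 ± 0.46 (SE), with an edgeR adjusted p of 0.239 and a level 2.82-fold lower. With pairing it was -1.55 ± 0.28 (SE), with an edgeR adjusted p of 0.00336. The paired adjusted p was 0.0166 to 0.0214 with any pair left out. DESeq2 did not call it (adjusted p = 0.0612). Dcp1b shares part of its interval with Cacna1c, which had at most 0.456 CPM in any library.

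EDC4 is the scaffold that brings DCP1 and DCP2 together in processing bodies. Edc4 (chromosome 8, 105880873 to 105893225) was 244, 156 and 214 CPM in controls and 303, 234 and 319.9 CPM after IAA. The value of depleted replicate 2 lay within the control range, since both libraries of replicate 2 were the lowest of their group. Within each pair Edc4 rose (edgeR adjusted p = 0.00169 for a paired log2 fold change of 0.49 ± 0.08 SE, and 0.000663 to 0.0249 with any pair left out), while the unpaired adjusted p was 0.409. The decapping enzyme gene Dcp2 was 280.3, 292 and 232 against 249.4, 283 and 249.3 CPM. Dcp1a, the paralogue of Dcp1b, was 169.8, 177 and 168 against 175, 206 and 176 CPM (unpaired log2 fold change 0.11 ± 0.13 SE, paired edgeR adjusted p = 0.402). Edc3 and Lsm1, whose products activate decapping, had log2 fold changes of -0.06 and -0.19 in the unpaired fit. None of these 4 genes was called.

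Xrn1 encodes the cytoplasmic 5′ to 3′ exonuclease that digests decapped mRNA. Xrn1 (chromosome 9, 95954750 to 96057806) was 141, 185 and 141 CPM in controls and 91.5, 119.5 and 82.6 CPM after IAA. Every depleted library was below every control, and replicate 2 was the highest of both groups. Without pairing the log2 fold change was -0.67 ± 0.19 (SE), with an edgeR adjusted p of 0.182. With pairing it was -0.68 ± 0.08 (SE), with an edgeR adjusted p of 0.000235, which remained between 0.000301 and 0.00615 when any pair was left out. DESeq2 gave an adjusted p of 0.0568. The lncRNA gene Gm16794 overlaps the start of Xrn1, at 0.501 to 3.01 CPM.

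**Figure D3:**
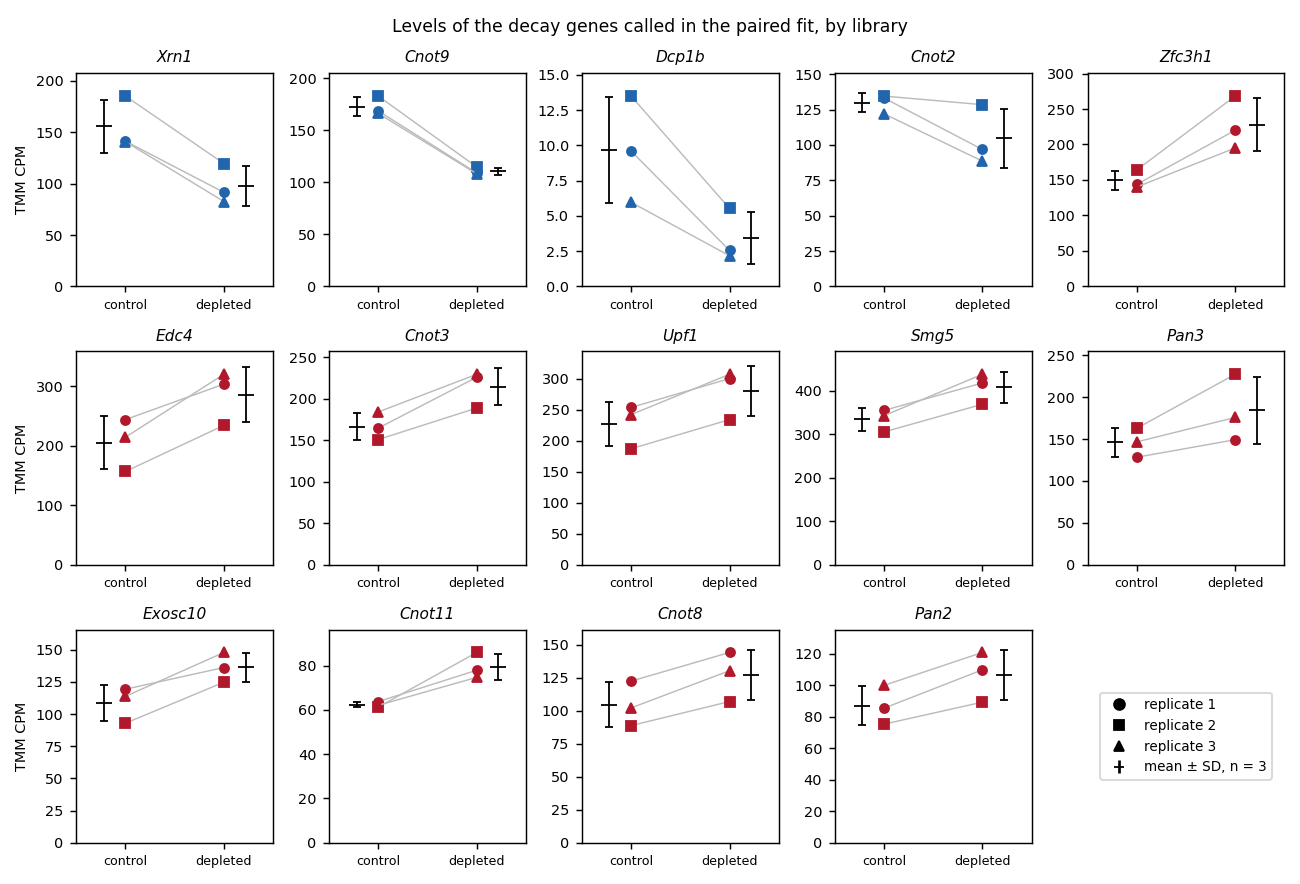
TMM CPM (y axis, starting at 0) of the 14 decay genes called in the paired fit, in control and depleted libraries, with lines joining libraries of the same replicate number and black bars for the mean ± SD of 3 libraries. Each panel has its own scale. Xrn1, Cnot9 and Dcp1b (blue) fall along all 3 lines with no overlap of groups, and Edc4, Upf1, Pan2, Pan3 and Cnot8 (red) rise along each line from different starting levels.

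Several decay factors come as paralogues, and the log2 ratio of the pair within each library shows whether they shifted apart. For Dcp1a over Dcp1b the ratio was 4.13, 3.70 and 4.79 in controls and 6.05, 5.20 and 6.28 in depleted libraries. The groups did not overlap and differed by 1.63, which gave an exact two-sided permutation p of 0.1, the smallest that 3 libraries against 3 allow, and 0.6 after adjustment over the 6 pairs compared. For Upf3a over Upf3b the ratio was 0.01, -0.28 and 0.22 in controls and -0.15, -0.35 and -0.55 after IAA, a difference of -0.33 that had the same sign in 3 of 3 pairs (exact permutation p = 0.2, adjusted 0.6) and went to -0.21 without control replicate 3. The ratios differed by 0.02 for Cnot6 over Cnot6l, -0.13 for Cnot7 over Cnot8, 0.14 for Dis3 over Dis3l and 0.02 for Smg5 over Smg6, each smaller than the SD within both groups. For these 4 the exact permutation p was 0.7 or 1.0.

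**Figure D4:**
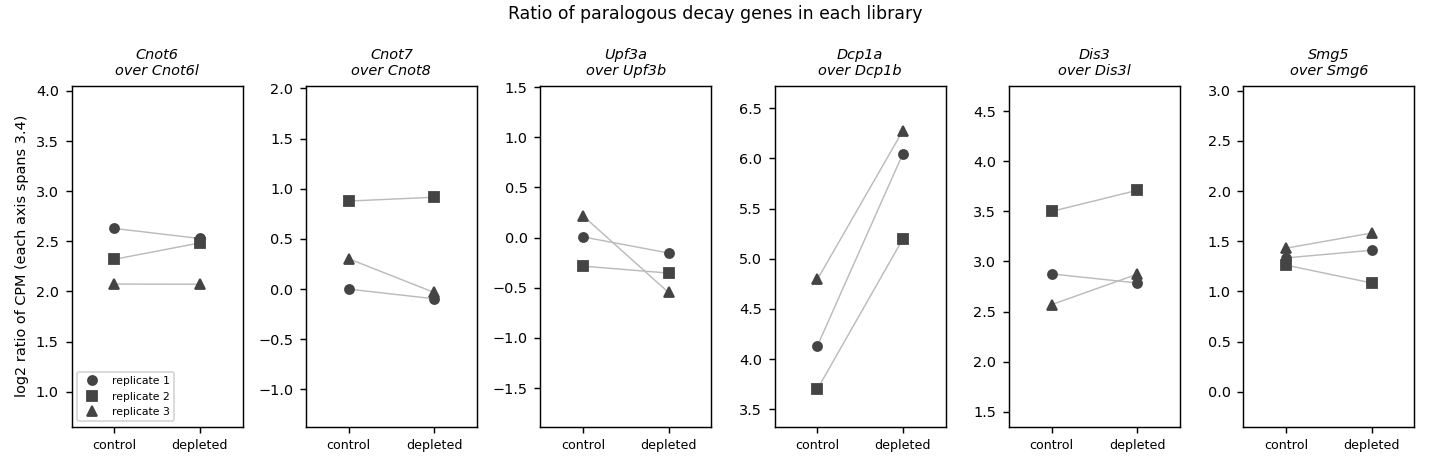
Log2 ratio of CPM (y axis, axes of equal span with different starts) for 6 pairs of related decay genes in control and depleted libraries, with lines joining libraries of the same replicate number. Dcp1a over Dcp1b rises by 1.48 to 1.92 along each line with no overlap of the groups, and the groups overlap in the other 5 panels.

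The decay genes span 3.3 to 238.6 kb of genome, with a median of 23.3 kb beside 19.0 kb for all tested genes with a RefSeq length. Another RefSeq gene overlaps the interval of 25 of the 49. The 8 genes under 10 kb had a median log2 fold change of 0.14, as did all genes of that class (0.14), and none of the 8 was called, where 2.42% of all genes of the class were called lower and 5.91% higher in the paired fit. Of the 23 genes of 10 to 30 kb, 8 rose and 1, Cnot9, fell in the paired fit. The shares over all genes of the class were 7.29% and 9.31%. Their median was 0.17, beside 0.04 for the class. The 11 genes of 30 to 100 kb held 2 lower calls, Dcp1b and Cnot2, and 1 higher, Zfc3h1, where 13.9% and 4.48% of the class were called (median -0.09 beside -0.07). Among the 7 genes of 100 kb or more, Xrn1 fell and Pan3 rose, where 12.6% of all genes of that class fell and 1.32% rose, with a median of 0.15 beside -0.12 for all genes of that length. Long decay genes therefore included values on both sides of 0, such as Smg6 (238.6 kb, 0.27) and Smg1 (113.1 kb, 0.21) beside Xrn1 (103.1 kb, -0.67) and Parn (130.2 kb, -0.10).

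**Figure D5:**
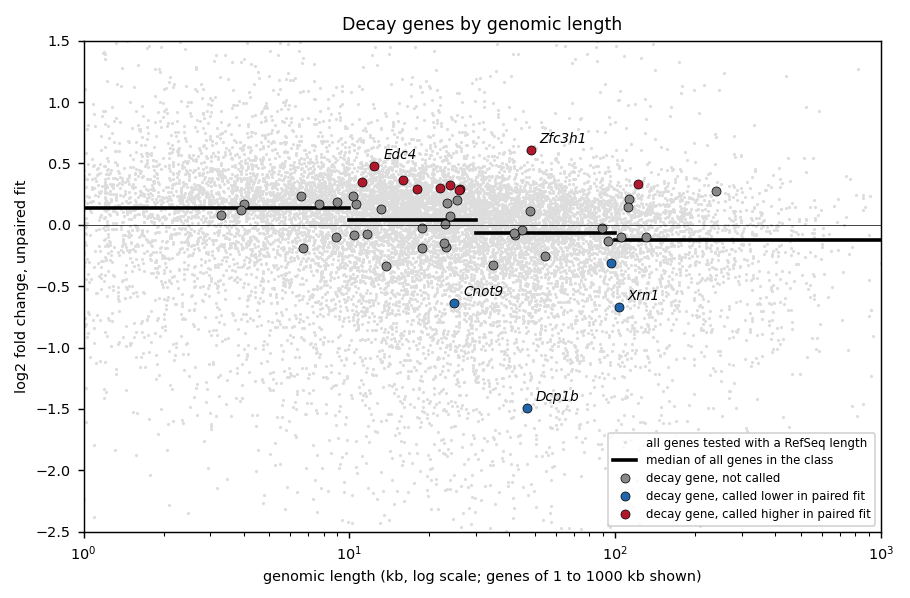
Log2 fold change in the unpaired fit (y axis) against genomic length (x axis, kb, log scale) for all tested genes with a RefSeq length (grey) and the 49 decay genes (large points, coloured where called in the paired fit), with black lines for the median of all genes in 4 length classes. Dcp1b, Cnot9 and Xrn1 lie well below the line of their class and Zfc3h1 and Edc4 well above.

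A second list of 66 other decay genes, all of them tested, gave 1 lower call in the paired fit (1.52%, against 7.9% of all genes) and 10 higher (15.2%, against 4.96%). The unpaired fit called 0 of them, and 5 had an unadjusted p under 0.05 in edgeR (7.58%, against 10.9% of all genes). The median unpaired log2 fold change was 0.15, beside 0.02 over all genes. The gene that fell was Tnrc6b (chromosome 15, 80711313 to 80941086), whose product recruits CCR4-NOT and PAN2-PAN3 to microRNA targets. Tnrc6b was 193, 259 and 224 CPM in controls and 114, 155 and 100.1 CPM after IAA (edgeR adjusted p = 0.0001205 for a paired log2 fold change of -0.89 ± 0.09 SE), and DESeq2 called it as well (adjusted p = 0.0049). Its relatives Tnrc6a and Tnrc6c had unpaired log2 fold changes of 0.05 and -0.08 and were not called.

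The genes that rose in the paired fit included Noct, a gene of the CCR4 nuclease family, from 226 ± 18.2 to 281 ± 21.5 CPM, and Btg1, whose product binds the CAF1 deadenylases, from 66.9 ± 10.1 to 90.2 ± 12.6 CPM (mean ± SD, n = 3; paired edgeR adjusted p = 0.0132 and 0.0141). Pabpn1, the nuclear poly(A)-binding protein gene that works with ZFC3H1, rose from 139 ± 22.9 to 179 ± 4.91 CPM (paired edgeR adjusted p = 0.0202). Pabpc1 and Pabpc4, cytoplasmic poly(A)-binding protein genes, the decay regulator gene Khsrp and the decapping activator gene Patl1 rose in the paired fit too, with unpaired folds of 1.21 to 1.25. Nudt16, a nuclear decapping enzyme gene, went from 0.604 ± 0.355 to 2.76 ± 0.974 CPM on 4 to 83 counts per library (paired edgeR adjusted p = 0.0238). Mtrex, the helicase shared by NEXT and PAXT, had a log2 fold change of -0.04, and Xrn2, the nuclear 5′ to 3′ exonuclease, had 0.10. Neither was called.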

How the data were processed

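Labelled RNA of 6 libraries was measured, 3 control and 3 depleted. The authors deposited a table of estimated counts of reads per gene, already whole numbers. The mm10 build and the tools HISAT2 (2.2.1), StringTie (2.2.1) and DESeq2 (1.42.0) are named, with no role, per the submitters' processing notes. No source used here gives strandedness, 4sU pulse length or spike-ins. Columns were matched to samples by name. Counts were tested with edgeR 4.0.16 (R 4.3.3): filterByExpr, TMM scaling and the robust quasi-likelihood test over all genes, with Benjamini-Hochberg adjustment and a threshold of 0.05. The unpaired fit, planned as the main test, has no block. The paired fit, planned as an alternative, has the replicate number as a block. Log2 fold changes are depleted over control, levels are TMM CPM, and SEs are implied by fold change and F. The replicate numbers were taken to pair libraries because deviations from the group mean correlated at 0.268, 0.387 and 0.321 between same-numbered libraries. Those correlations came from the same counts that were then tested. The design text calls the replicates independent, without saying whether cultures were separate or what a number stands for. Thus p-values of the unpaired fit reflect only the spread between libraries of a group. Those of the paired fit reflect only the spread of the differences within pairs. Either spread may be technical. All changes are relative to other genes, since TMM removes any shift shared by all labelled RNA. The unpaired test was checked on simulated counts with no replicate effect and with larger changes than any decay gene had. That check does not cover the paired fit or changes of the size seen here. Paralogue ratios used log2 CPM with a prior count of 2. The decay genes and lists were chosen with earlier results of these data known. All decay genes were accounted for, and values by library are given for those called in either fit, the highest and lowest in level, 6 paralogue pairs and the next 5 by p. Of the other list, the 10 called genes with the lowest paired p were to be named, of which 1 is not reported here, with Tnrc6a, Tnrc6c, Mtrex and Xrn2 added after their values were seen. Intervals, overlaps and lengths came from RefSeq on GRCm38.p6, by symbol. The replicate block, DESeq2 1.42.0, RLE scaling, no filter and omission of each library or pair were the alternatives.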

Additional observations from a re-analysis of the deposited data

How the results depend on the processing

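The unpaired edgeR fit called 0 of the 49 decay genes in either direction, also with RLE scaling, with no filter on low counts and with any 1 library left out. With the replicate block 4 were lower and 10 higher, and DESeq2 called 1 lower and 1 higher. Over the fits that leave out a library or a pair, the counts ran from 0 to 4 lower and from 0 to 6 higher. The paired fits without pairs 1, 2 and 3 gave 3, 4 and 3 lower and 6, 5 and 2 higher. The share of all genes called was not computed for fits with a library or pair left out, RLE scaling or no filter. The counts from those fits are therefore not a result about the decay genes. The other list of 66 had 1 lower and 10 higher with the replicate block and 1 lower in DESeq2. The cause of these differences in count was not tested. The median of the 49 genes was 0.08 and ran from -0.021 (without depleted replicate 2) to 0.10 when a library was left out.

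Of 27 decay genes followed through 13 alternatives, sign changed for Upf3b, Cnot1, Cnot6, Cnot6l and Cnot7, none of them called in any fit. Their log2 fold changes ran from -0.122 to 0.133, -0.161 to 0.072, -0.324 to 0.030, -0.287 to 0.013 and -0.065 to 0.317 when a library was left out, and Upf3b was 0.097 with the replicate block and without pair 2. The ratio of Cnot6 to Cnot6l ran from -0.11 to 0.17, Cnot7 to Cnot8 from -0.46 to 0.11, Dis3 to Dis3l from -0.15 to 0.40 and Smg5 to Smg6 from -0.10 to 0.15, that of Dcp1a to Dcp1b from 1.38 to 1.95 and that of Upf3a to Upf3b from -0.46 to -0.21. Of the 14 genes called in the paired fit, 6 had an unpaired value that moved by over 1.5 times when a library was left out. Pan3 went to 0.16 and Cnot2 to -0.49 without depleted replicate 2, Upf1 to 0.18 and Edc4 to 0.32 without control replicate 2, and Pan2 to 0.20 without depleted replicate 3. Cnot8 went to 0.18 without control replicate 2 or depleted replicate 1. Dcp1a, not called, went to 0.03 without depleted replicate 2. Depth limits Dcp1b most, with 32 counts in its lowest library.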

Other observations

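Many decay genes had replicate 2 at the same end of the range in both groups. Replicate 2 held the highest value of both groups for 19 of the 49 genes, among them Cnot4, Smg1, Cnot1, Cnot6, Cnot7 and Xrn1. It held the lowest of both for 15, among them Edc4, Upf1, Pan2, Cnot8 and Magoh. The same count over all genes was not made, so this is not shown to be particular to decay genes. Replicate 2 also stood apart on the first principal component of all genes tested. Cnot4 was 236 and 267 CPM in the control and depleted libraries of replicate 2, against 110 to 140.5 CPM in the other 4, and Zfp207 was 1116 and 1467 CPM there, against 545 to 695 CPM. What sets replicate 2 apart was not tested.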
